A study of Mus musculus with 12 samples.

Results

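Spermatocytes of *Mael*-/- mice overproduce L1, a retrotransposon whose first open reading frame encodes the RNA-binding protein ORF1p. The transcripts described here encode 9 transcription factors of male germ cells, *Mybl1*, *Tcfl5*, *Rfx2*, *Crem*, *Tbpl1*, *Taf7l*, *Taf4b*, *Sohlh2* and *Hsf2*. They were chosen by name, with earlier results of these data known. All 9 were found among the 20985 gene rows of the deposited tables. The question was how much of each transcript was present in whole testis extract, in pooled sucrose gradient fractions of that extract, and on beads with or without an antibody to ORF1p.

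All 12 RNA-seq libraries came from testes of *Mael*-/- mice of the C57BL/6 strain, 3 months old, with 3 libraries in each of 4 groups. TOTAL was the extract, with EDTA added to 10 mM, which takes ribosomes apart. INPUT was the pool of sucrose gradient fractions 5 to 8 of TOTAL. IP was the RNA recovered from INPUT with a LINE-1 ORF1p antibody coupled to beads, and BO, or beads only, was the RNA that INPUT left on beads without antibody. The libraries were strand-specific and depleted of rRNA. The study describes the 3 libraries of a group as biological replicates, and whether a replicate was 1 animal or a pool was not given in the sources used here. No wild-type testis was analysed here, so every value below belongs to the *Mael*-/- testis.

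Male germ cells pass from spermatogonia, which divide by mitosis, through spermatocytes, which undergo meiosis, to haploid spermatids. Transcription factors, not all of them confined to the testis, switch on the genes of each step. *Mybl1* encodes A-MYB, which drives the pachytene programme of meiosis and the pachytene piRNA precursors, and *Tcfl5* encodes a basic helix-loop-helix factor of spermatocytes. *Rfx2* encodes a regulator of ciliary and spermatid genes, *Crem* encodes the cAMP-responsive activator of spermatid genes, and *Tbpl1* encodes a relative of the TATA-binding protein. *Taf7l* and *Taf4b* encode germ cell versions of subunits of TFIID, the complex that binds core promoters. *Sohlh2* encodes a helix-loop-helix factor of differentiating spermatogonia, and *Hsf2* encodes a heat shock factor that is abundant in testis. *Sohlh2* and *Taf4b* are thus best known from stages before meiosis.

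In mm10 (GENCODE M21), all 9 are annotated as single protein-coding genes. *Mybl1* lies at chr1:9667415-9700209, *Tcfl5* at chr2:180621956-180642708, *Rfx2* at chr17:56775897-56831013, *Tbpl1* at chr10:22703879-22731938 and *Taf7l* at chrX:134460118-134476490, all on the minus strand. *Sohlh2* lies at chr3:55182028-55209957 and *Hsf2* at chr10:57486385-57513135, both on the plus strand. The positions of *Crem* and *Taf4b* are not given here. Exons of *Tbpl1* overlap exons of *Slc2a12* on the opposite strand over up to 407 bases, those of *Tcfl5* overlap *Col9a3* over up to 234 bases, and those of *Crem* overlap *Gm6225* over up to 369 bases. The mean normalised read count in TOTAL was 469 for *Slc2a12*, 41.9 for *Col9a3* and 0.325 for *Gm6225*. Whether strand was used in counting is not given in the sources used here, so reads of *Tbpl1* and *Tcfl5* may include some of these neighbours.

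The promoters show which sequence motifs of the group's own factors lie near the starts of its genes. Of the 9 genes, 6 had an entry in the RefSeq promoter table (GRCm38.p6). *Mybl1*, *Crem* and *Taf4b* had none and were not searched. For the 6, the 250 bases before the start given there were searched on both strands for 6 short motifs. For *Tbpl1* that start, at position 22731447 of chromosome 10, lies 491 bases inside the GENCODE gene, and for the other 5 genes 0 to 17 bases inside. The MYB core AACGG was found for *Rfx2* and *Tcfl5*, and in 14.5% of 32851 promoters. CACGTG, the E-box that TCFL5 can bind, was found for *Hsf2* and *Taf7l*, and in 6.02% of promoters. The RFX core GTTGCC was found for *Rfx2*, where it shares bases with a complement of AACGG, and in 10.4% of promoters. Of the heat shock motifs, TTCNNGAA was found for *Taf7l* and *Tbpl1* and in 7.17% of promoters. The other form, GAANNTTC, was found for none of the 6 searched genes and in 6.69% of promoters. The cAMP response element TGACGTCA was found for none of the 6 searched genes, which do not include *Crem*, and in 1.55% of promoters. The windows below lie outside annotated exons, read 5′ to 3′ on the strand of the gene, and carry the motifs in capitals. They are those of *Tcfl5* (chr2:180642755-180642823), *Tbpl1* (chr10:22731473-22731510), *Rfx2* (chr17:56831104-56831198) and *Taf7l* (chrX:134476519-134476573), all on the minus strand. That of *Tbpl1* falls within the GENCODE gene, and the others lie before it. A further AACGG match of *Tcfl5*, 21 to 17 bases before the start, and the CACGTG match of *Hsf2* are not shown.
Tcfl5: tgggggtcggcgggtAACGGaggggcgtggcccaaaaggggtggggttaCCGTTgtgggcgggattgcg
Tbpl1: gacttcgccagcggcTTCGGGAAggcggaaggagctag
Rfx2: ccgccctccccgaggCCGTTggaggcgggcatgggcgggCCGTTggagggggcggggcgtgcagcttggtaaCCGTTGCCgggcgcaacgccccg
Taf7l: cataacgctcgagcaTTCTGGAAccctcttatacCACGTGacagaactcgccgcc
A match describes these letters only and was not read as a bound site.

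The tables that hold the genes give, for each comparison, the mean of the normalised read counts of IP and of the other group. Each has 802920 rows, of which 20985 are genes and the others carry a repeat name. Because the 3 tables share the IP libraries, the whole reads of each IP library could be solved from them. The IP libraries held 27937465, 26086106 and 25249566 reads on genes and are called a, b and c in that order, since they could not be matched to replicate numbers. For BO, INPUT and TOTAL only the mean is known, so these groups have no spread between libraries here and no test was made. The reads behind those means were at least 47180986 for BO, 71196141 for INPUT and 81782745 for TOTAL, over 3 libraries each. A transcript was counted as past the fold when the log2 ratio of the means was above 1 or below -1, and all genes with a mean of at least 10 over both groups served as background.

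In the libraries as a whole, spermatocyte markers were present and spermatid markers nearly absent. The 8 spermatocyte markers had TOTAL means from 143 to 9433, and the 6 spermatid markers from 11.7 to 39.3. Markers of Leydig cells reached 29894 and those of Sertoli cells 14583, so TOTAL also holds much somatic RNA, and fewer cells of a type and less RNA per cell cannot be told apart. *Mael* was listed at 0 in IP and INPUT, at 0.650 in TOTAL and at 0.502 in BO. L1Md_A repeats, a young L1 subfamily, had a normalised count of 75625 ± 19812 (SD, n = 3) in IP, 21390 ± 5108 in INPUT, 21312 ± 4360 in TOTAL and 14765 ± 778 in BO. BO replicate 3 stood apart, with 52.1% of its repeat signal on LSU rRNA against 1.93% to 15.9% in the other 11 libraries. The gene means of BO cannot be recomputed without it, and its part in the BO values below was not tested.

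The 9 transcripts covered a wide range of levels in TOTAL. *Taf7l* was the most abundant at 2394 normalised reads per kb of its longest transcript, followed by *Taf4b* at 615, *Mybl1* at 503, *Tbpl1* at 352 and *Tcfl5* at 279.8. *Sohlh2* at 212 and *Hsf2* at 202 came next and were not separable, since their 95% counting intervals of 201 to 223 and 195 to 209.7 overlapped. *Crem* had 115 and *Rfx2*, the least abundant, had 25.9 normalised reads per kb. These intervals are exact Poisson intervals on the fewest reads that a mean allows, and cover counting error only.

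In IP, the 3 most abundant and the 2 least abundant transcripts were those of TOTAL, while *Tbpl1* had a lower place. *Taf7l* had 13775 ± 1761 normalised reads per kb (SD, n = 3 IP libraries), *Taf4b* 3327 ± 439 and *Mybl1* 1805 ± 353. *Tcfl5* had 1080 ± 113, *Sohlh2* 859.5 ± 52.9 and *Hsf2* 685 ± 90.9. *Tbpl1*, which was above *Tcfl5*, *Sohlh2* and *Hsf2* in TOTAL, was below all 3 in IP with 537 ± 41.3 normalised reads per kb. *Crem* with 246 ± 29.5 and *Rfx2* with 192 ± 46.0 were lowest, and the ranges of their 3 IP libraries overlapped. No other neighbours in this order overlapped in IP.

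**Figure D1:**
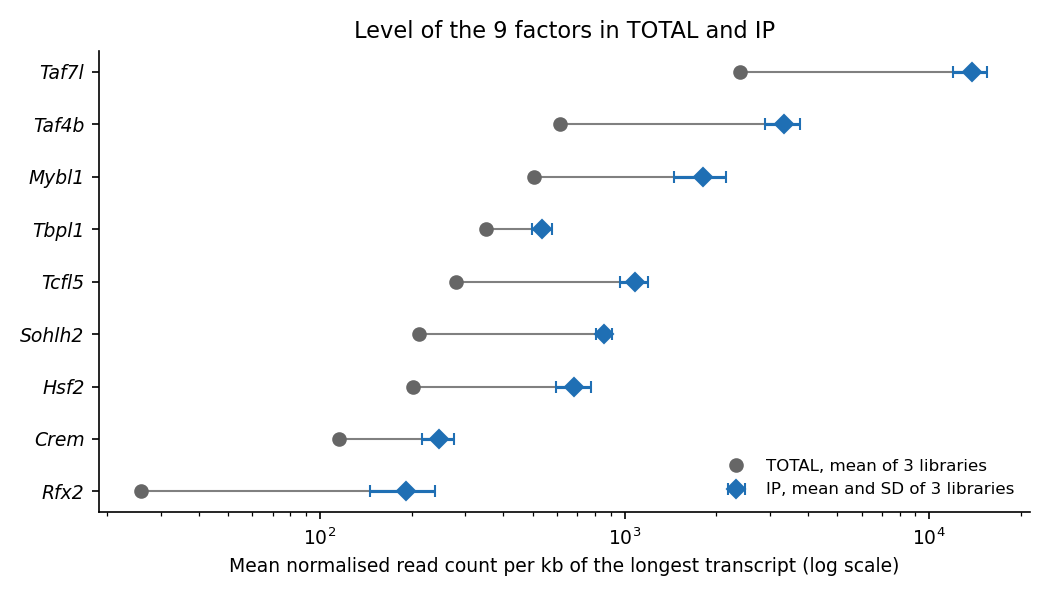
Level of the 9 transcripts in TOTAL (grey circles, mean of 3 libraries) and in IP (blue diamonds, mean and SD of 3 libraries), in mean normalised read count per kb of the longest transcript on a log axis. Every diamond lies to the right of its circle, with the widest gap for *Rfx2* (25.9 to 192) and the narrowest for *Tbpl1* (352 to 537).

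Compared with TOTAL, 8 of the 9 transcripts were past the fold in IP, and 20.6% of 14668 genes were past it in that direction. None was past it in the other direction, where 26.5% of genes were. The median log2 ratio of the 9 was 1.95, against -0.03 for all genes. Compared with INPUT, all 9 were past the fold and higher in IP, against 20.7% of 14404 genes, with a median of 1.95 against 0.15. None was past the fold in the lower direction, against 14.9% of genes. Compared with BO, 7 of the 9 were past the fold and higher in IP, but so were 44.4% of 13638 genes. In the lower direction over BO, none of the 9 was past the fold and 11.4% of genes were. The median of the 9 over BO was 1.79 and that of all genes 0.82. With each ratio over BO taken relative to that median gene, 4 of the 9 were past the fold and higher, *Taf7l*, *Sohlh2*, *Rfx2* and *Tcfl5*, and *Tbpl1* was past it in the lower direction at -1.34. On that scale 18.8% of all genes were higher and 24.4% lower. Because the 9 were chosen with earlier results of these data known, the shares of all genes serve as description only.

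All 3 IP libraries lay above the INPUT mean and above the TOTAL mean for each of the 9 transcripts. Among all genes this was so for 48.2% over INPUT and for 42.7% over TOTAL. Over BO, all 3 IP libraries were above the mean for 8 of the 9 and below it for *Tbpl1*. Among all genes, 66.4% had all 3 above the BO mean and 23.8% had all 3 below it. The 3 comparisons share the IP libraries and are therefore not independent of each other.

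**Figure D2:**
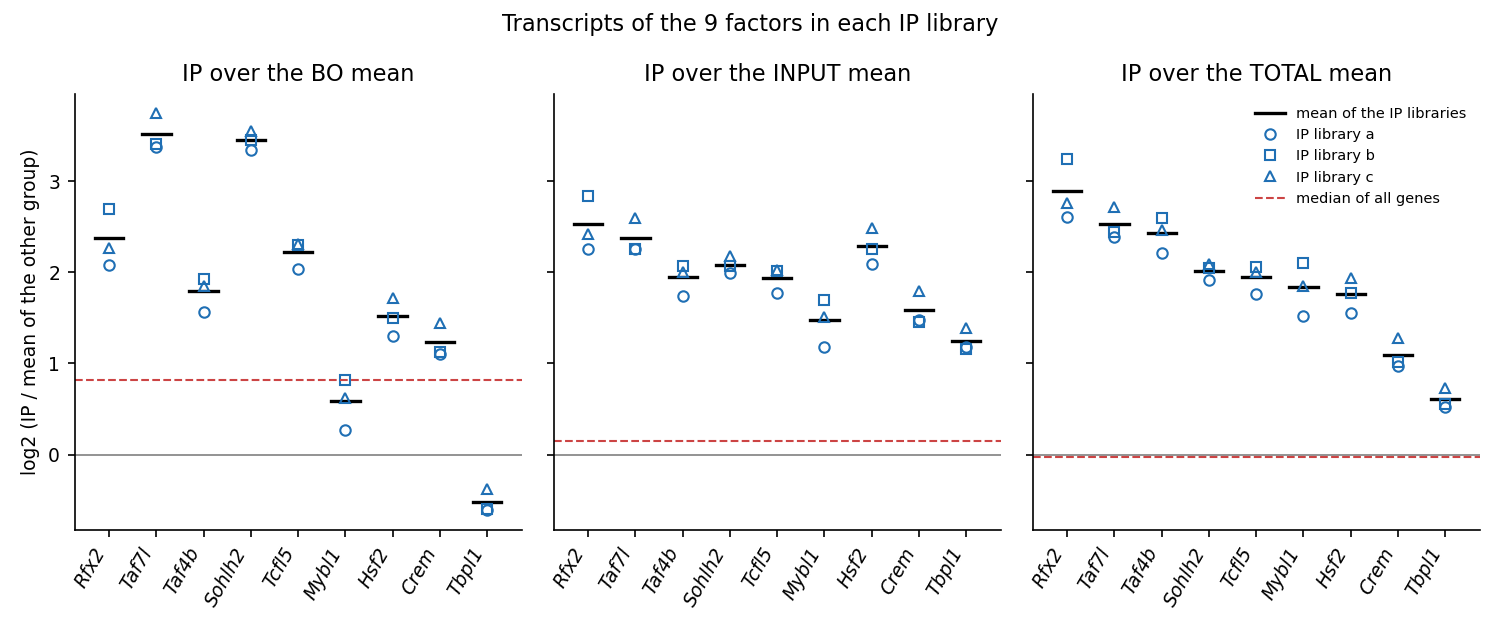
Log2 of the normalised count in each IP library over the mean of BO (left), INPUT (middle) and TOTAL (right). Symbols are the 3 IP libraries, black bars their mean, the grey line equality and the red dashed line the median of all genes (0.82, 0.15 and -0.03); *Tbpl1* is the only transcript below equality, and only over BO.

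*Mybl1*, which encodes A-MYB, had a normalised read count of 2506 in TOTAL. In the same table, IP libraries a, b and c had 7217, 10731 and 9014. All 3 IP libraries were thus above the TOTAL mean, by 2.88-fold, 4.28-fold and 3.60-fold. The log2 ratio of the means was 1.84 over TOTAL (SD of the 3 libraries 0.29) and 1.48 over INPUT, where the INPUT mean was 3237 and the IP mean 9011. Over BO it was 0.59, with means of 4564 in BO and 6879 in IP. This is below the median gene of 0.82, so that *Mybl1* was higher than in BO as deposited and lower, at -0.23, once the ratios were centred on the median gene.

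*Tcfl5* was at 623 in TOTAL and at 2118, 2590 and 2502 in IP libraries a, b and c. The 3 libraries differed little and all were between 3.40-fold and 4.16-fold above the TOTAL mean. Its log2 ratio was 1.95 over TOTAL and 1.94 over INPUT, where the INPUT mean was 628 and the IP mean 2414. Over BO the means were 395 and 1841 and the log2 ratio was 2.22. This is 3.86-fold over TOTAL, 3.84-fold over INPUT and 4.66-fold over BO, and 2.63-fold over BO relative to the median gene.

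*Rfx2*, the regulator of ciliary and spermatid genes, had the highest ratio over both TOTAL and INPUT. Its TOTAL mean was only 107, and IP libraries a, b and c had 652, 1013 and 726. The lowest of them was 6.07-fold and the highest 9.43-fold above the TOTAL mean. The log2 ratio was 2.89 over TOTAL (SD 0.33) and 2.53 over INPUT, with means of 139 in INPUT and 798 in IP. Over BO it was 2.37, or 1.55 relative to the median gene, with means of 118 and 609. Its spread between IP libraries was the widest of the group, with a coefficient of variation of 23.9%, and at least 329 reads lay behind the TOTAL mean.

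*Crem* was at 337 in TOTAL and at 661, 682 and 820 in IP libraries a, b and c. Only library c was clearly past the fold over TOTAL, at 2.43-fold, while a and b were at 1.96-fold and 2.02-fold. The log2 ratio over TOTAL was 1.09, 0.99 without library c and 0.92 when the groups were scaled to their summed gene means, so that its place past the fold over TOTAL rests on that library and on the scaling. Over INPUT, the means were 242 and 725 and the log2 ratio was 1.58. Over BO, they were 235 and 553, a 2.35-fold difference, and the log2 ratio relative to the median gene was 0.41.

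*Tbpl1*, the relative of the TATA-binding protein, was the lowest of the 9 in each comparison. Its TOTAL mean was 1012, and IP libraries a, b and c had 1456, 1492 and 1677, which is 1.44-fold to 1.66-fold above it. The log2 ratio was 0.61 over TOTAL and 1.25 over INPUT, with means of 652 in INPUT and 1551 in IP. The ratio over INPUT was 0.88 when the groups were scaled to their summed gene means, and so no longer past the fold. In BO, by contrast, *Tbpl1* had a higher mean normalised count than in IP, which is relative to each library and not an amount of RNA on the beads. The BO mean was 1697 and IP libraries a, b and c had 1113, 1123 and 1311, with a log2 ratio of -0.52. *Tbpl1* was at the 18.2 percentile of all genes over BO, but at the 85.5 percentile over INPUT.

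*Taf7l*, the germ cell TFIID subunit encoded on the X chromosome, had the highest ratio over BO. Its BO mean was 1780, and IP libraries a, b and c had 18513, 18924 and 23850 in that table. These are 10.4-fold, 10.6-fold and 13.4-fold above bare beads, at a log2 ratio of 3.52, or 2.70 relative to the median gene, and the 99.2 percentile of all genes. Over INPUT the means were 5156 and 26793 and the log2 ratio was 2.38. Over TOTAL they were 4627 and 26628, with IP libraries at 24214, 25147 and 30522, and the log2 ratio was 2.52. *Taf7l* also had the most reads of the group, 70528 over the 3 IP libraries.

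*Taf4b*, the other germ cell TFIID subunit, was at 3167 in TOTAL and at 14692, 19160 and 17534 in IP libraries a, b and c. All 3 were between 4.64-fold and 6.05-fold above the TOTAL mean, and the log2 ratio was 2.44 (SD 0.19). Over INPUT the means were 4462 and 17191 and the log2 ratio was 1.95. Over BO they were 3792 and 13117 and the log2 ratio was 1.79, which is 0.97 relative to the median gene and so just inside the fold on that scale.

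*Sohlh2* was at 501 in TOTAL and at 1892, 2069 and 2134 in IP libraries a, b and c. It had the tightest libraries of the group, with a coefficient of variation of 6.16%. The log2 ratio was 2.02 over TOTAL and 2.08 over INPUT, with means of 483 in INPUT and 2042 in IP. Over BO it was 3.45, or 2.62 relative to the median gene, close to *Taf7l*, with a BO mean of 143 and IP libraries at 1447, 1557 and 1668. At least 284 reads lay behind that BO mean, which keeps its counting error at 5.93% or less.

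*Hsf2* was at 915 in TOTAL and at 2675, 3130 and 3497 in IP libraries a, b and c. The libraries were 2.92-fold to 3.82-fold above the TOTAL mean, and the log2 ratio was 1.76. Over INPUT the means were 638 and 3117 and the log2 ratio was 2.29, the third highest of the group. Over BO the means were 832 and 2378 and the log2 ratio was 1.52, which is 0.69 relative to the median gene.

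Across the 9 transcripts, the coefficient of variation between the 3 IP libraries ranged from 6.16% to 23.9% with a median of 12.8%. The median for the 11125 genes with a TOTAL mean of at least 100 was 13.5%. With each IP library left out in turn, only *Crem* over TOTAL changed sides of the fold. The log2 ratios of the group spanned 4.04 over BO, 2.28 over TOTAL and 1.28 over INPUT, so the 9 differed from each other most in their ratio over bare beads.

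**Figure D3:**
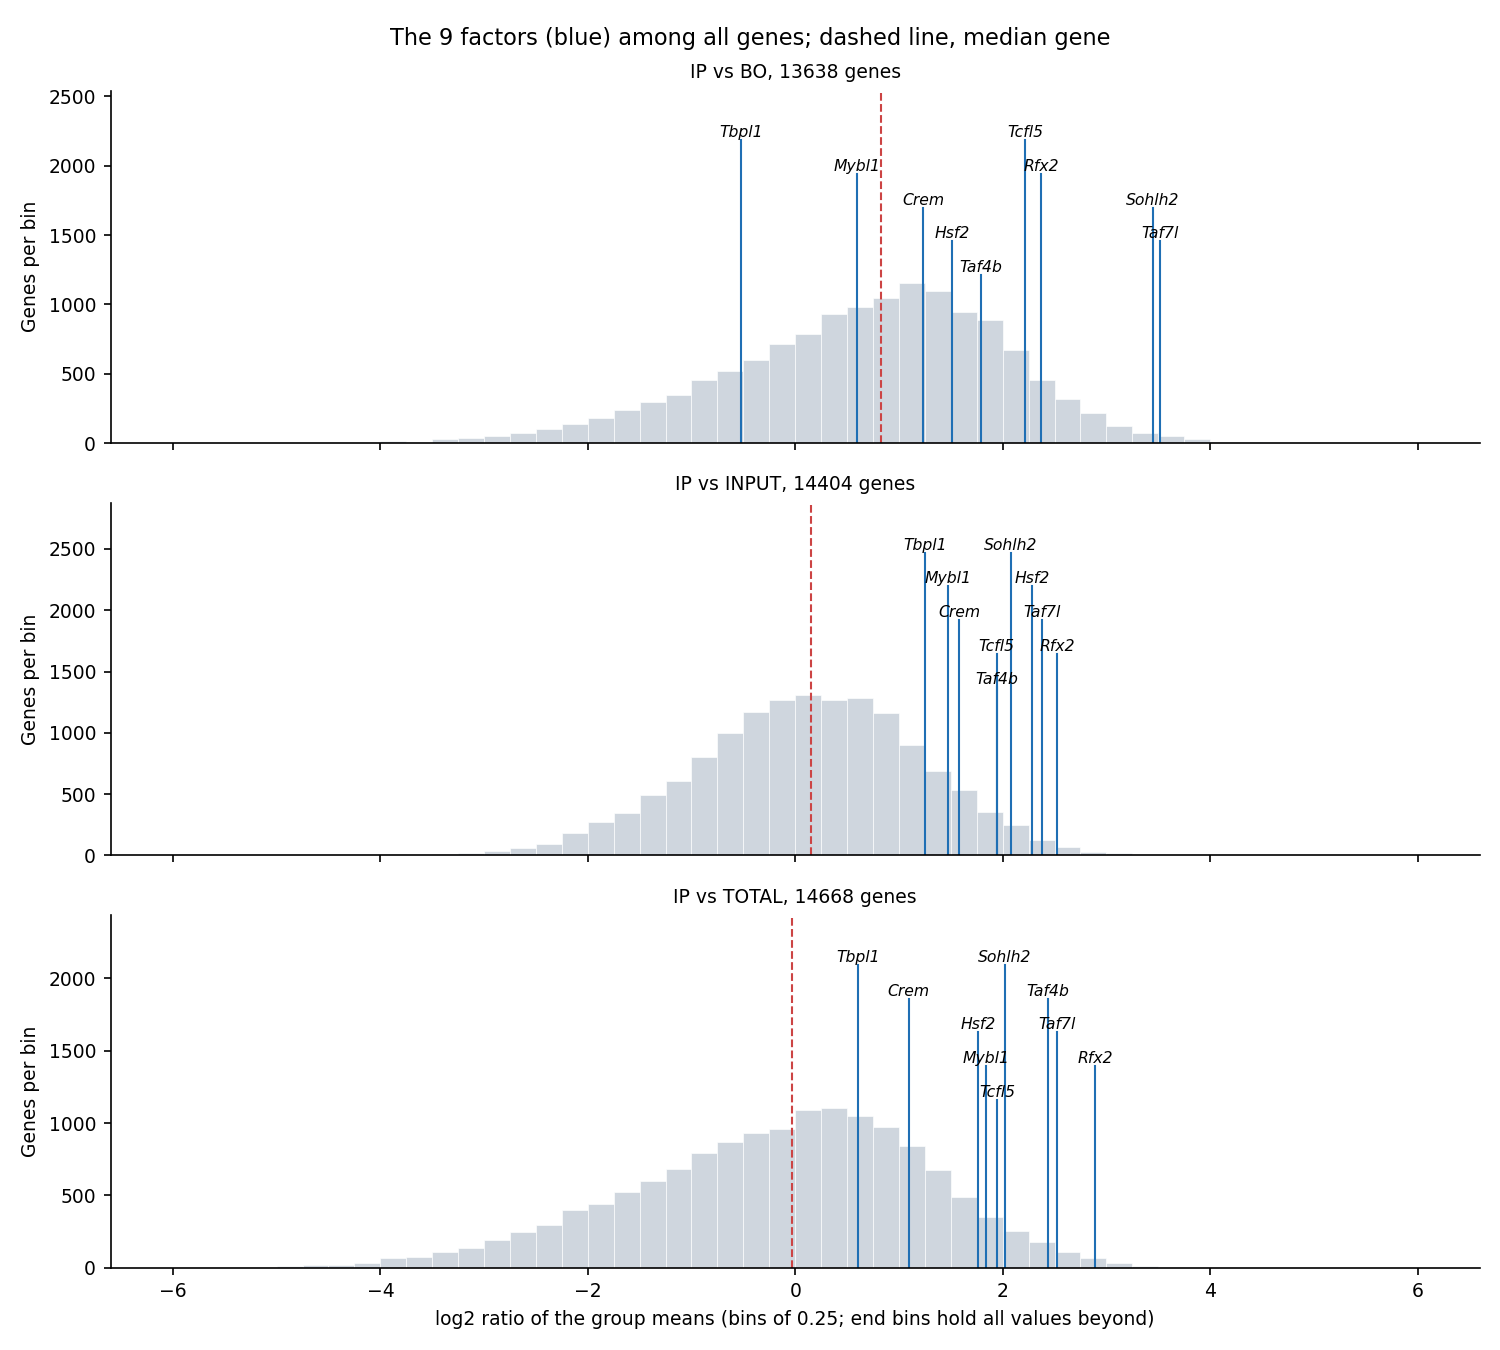
Histograms of the log2 ratio of the group means over all genes with a mean of at least 10, for IP vs BO, IP vs INPUT and IP vs TOTAL, with genes per bin on the vertical axis. Blue lines mark the 9 transcripts and the red dashed line the median gene (0.82, 0.15 and -0.03); over INPUT all 9 lie between 1.25 and 2.53, while over BO they spread from -0.52 to 3.52.

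The passage from TOTAL to INPUT and from INPUT to bare beads can be described only across tables that were normalised separately. The ratios were joined through the IP libraries and centred on the median gene. From TOTAL to INPUT, none of the 9 was past the fold, where 18.8% of 14284 genes were in either direction. The centred log2 ratios ran from -0.50 for *Tbpl1*, -0.38 for *Hsf2* and -0.34 for *Crem* to 0.51 for *Mybl1* and *Rfx2* and 0.63 for *Taf4b*, with a median of 0.15. From INPUT to BO, 38.1% of 13582 genes were past the fold in either direction, and 3 of the 9 were, all higher in BO. These were *Tbpl1* at 2.32, *Mybl1* at 1.44 and *Hsf2* at 1.33. *Taf7l* at -0.59 and *Sohlh2* at -0.81 were lower on bare beads than in INPUT relative to the median gene, and the median of the 9 was 0.71. Without centring, the median was 0.16, and 1 of the 9 was past the fold and higher in BO, *Tbpl1* at 1.77, while 2 were past it and lower, *Taf7l* at -1.14 and *Sohlh2* at -1.37, where 43.2% of genes were past it in either direction. The count past the fold was thus 3 on both scales, near the share of all genes, and of the 3 only *Tbpl1* was the same.

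Each factor except *Tcfl5* was compared with relatives of its family, many of which act in somatic cells too. The list held 17 relatives, of which 14 had a mean of at least 10. Over TOTAL the member was above its relative in 11 of 14 pairs, over INPUT in 10 and over BO in 9, with median differences of 1.497, 1.502 and 1.43 in log2. Pairs that share a member are not independent. Of the 14 relatives, 6 were past the fold and higher in IP over TOTAL, 6 over INPUT and 8 over BO, where 20.6%, 20.7% and 44.4% of all genes were. In the lower direction 1 was past it over TOTAL, none over INPUT and 2 over BO, where 26.5%, 14.9% and 11.4% of all genes were. Relative to the median gene, 3 were past the fold and higher over BO and 5 lower, where 18.8% of genes were higher and 24.4% lower. The counts over BO include *Rfx4*, whose BO mean of 7.89 is below the minimum and which reached it through IP, and without it 7 of 13 were higher as deposited and 2 relative to the median gene. Their median log2 ratio was 0.90 over TOTAL, 0.67 over INPUT and 1.29 over BO, against -0.03, 0.15 and 0.82 for all genes.

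*Sohlh1*, the partner of *Sohlh2* in spermatogonia, differed most from its relative over TOTAL. It was at 239 in TOTAL and 71.2 ± 1.67 (SD, n = 3) in IP, a log2 ratio of -1.74 where *Sohlh2* had 2.02. Over INPUT *Sohlh1* was at -0.78, and over BO at 1.97, with only 14.0 in BO. The 2 genes thus differed by 3.76 in log2 over TOTAL and by 1.48 over BO.

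*Taf7*, the somatic form of *Taf7l*, had a log2 ratio of 0.92 over TOTAL against 2.52 for *Taf7l*, 1.61 against 2.38 over INPUT and 1.63 against 3.52 over BO. *Taf4a*, the broadly expressed form of *Taf4b*, had 1.59 against 2.44 over TOTAL, 1.06 against 1.95 over INPUT and -0.77 against 1.79 over BO. Both TFIID pairs thus had the germ cell form above the general form in each comparison. For the TATA-binding proteins the order was the other way. *Tbp* had 1.38 over TOTAL, 1.80 over INPUT and 1.67 over BO, above *Tbpl1* at 0.61, 1.25 and -0.52. *Tbpl2*, the oocyte form, was listed at 0 in TOTAL, INPUT and IP and at 2.15 in BO.

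The RFX family split over BO. *Rfx4* had 2.94 over TOTAL, 2.84 over INPUT and 3.78 over BO, all above *Rfx2*, although its TOTAL mean was only 18.5 and its BO mean may rest on as few as 15 reads. *Rfx1* had 1.17, 0.69 and 1.38. *Rfx3*, *Rfx5* and *Rfx7* were between 0.86 and 1.12 over TOTAL, yet below 0 over BO, at -1.34, -0.32 and -0.90. The BO mean of *Rfx3* was 2917 and that of *Rfx7* 3342, both above their INPUT means of 1025 and 1708, which come from another table.

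*Creb1* and *Atf1*, cAMP-responsive relatives of *Crem* in many tissues, had log2 ratios of 0.70 and 0.76 over TOTAL against 1.09 for *Crem*. Over INPUT, *Atf1* at 1.71 was above *Crem* at 1.58, and *Creb1* was at 0.20. Over BO they were at -1.40 and -0.15, and the BO mean of *Creb1* was 7388. *Hsf5*, a heat shock factor of spermatocytes, exceeded *Hsf2* in every comparison, with 2.98 over TOTAL, 2.51 over INPUT and 2.04 over BO, while *Hsf1*, the general factor, had 0.21, 0.66 and 1.59. *Mybl2*, the cell cycle MYB gene, had 0.40 over TOTAL and -0.18 over INPUT against 1.84 and 1.48 for *Mybl1*, but 1.21 over BO against 0.59. *Myb* and *Hsf4*, at 7.73 and 8.36 in TOTAL, had a mean under 10 over both groups in each comparison and were not compared.

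**Figure D4:**
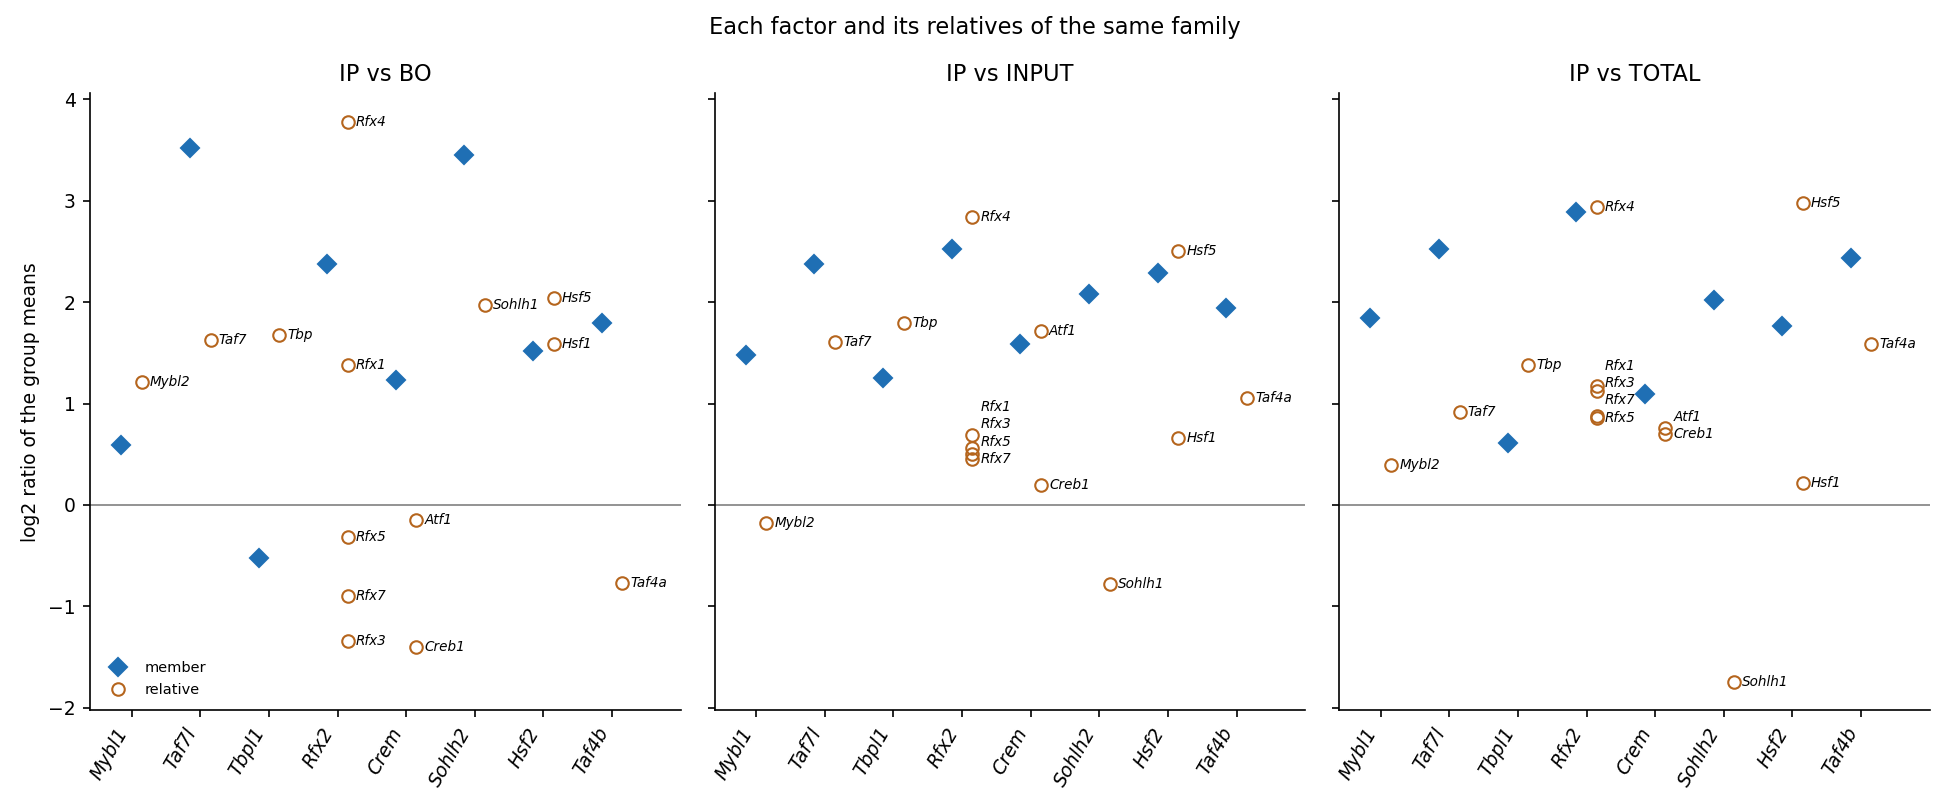
Log2 ratio of the group means for each factor (blue diamonds) and its relatives (open circles, named beside them) in IP vs BO, IP vs INPUT and IP vs TOTAL; *Tcfl5* had no listed relative. *Sohlh1* lies 3.76 below *Sohlh2* over TOTAL, and *Rfx3*, *Rfx5*, *Rfx7*, *Creb1*, *Atf1* and *Taf4a* lie below 0 over BO.

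The factors work with partners and act on target genes. These were read from lists that were also chosen with earlier results of these data known. Of 16 genes of the basal TFIID, TFIIA and TFIIB machinery, 9 were past the fold and higher over TOTAL, 13 over INPUT and 11 over BO, with medians of 1.01, 1.44 and 1.89. Among all genes the shares were 20.6%, 20.7% and 44.4%. Relative to the median gene, 10 were past the fold over INPUT and 10 over BO, where 16.6% and 18.8% of genes were. *Taf10*, a small TFIID subunit singled out after its values were seen, was past the fold and lower over TOTAL, at -1.39. The most abundant in TOTAL were *Taf1*, the largest TFIID subunit, with 1.99 over TOTAL, *Taf2* with 1.91, *Gtf2a1* of TFIIA with 1.02 and *Gtf2b*, which is TFIIB, with 0.87. Over BO, *Gtf2a1* was at -1.48, with a BO mean of 10500 and an IP mean that was lower in all 3 libraries, whereas *Gtf2b* was at 1.90. *Gtf2a1l*, the germ cell form of *Gtf2a1* and singled out after its values were seen, was at 1.48 over TOTAL and 3.24 over BO.

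Of 8 genes known to need *Mybl1*, 7 had a mean of at least 10 in each comparison. Past the fold and higher were 5 over TOTAL, 5 over INPUT and all 7 over BO, with medians of 1.56, 1.54 and 2.31, where 20.6%, 20.7% and 44.4% of all genes were. Relative to the median gene, the count over BO was 5 of 7, without *Tdrd1* and *Pld6* at 0.46 and 0.45, and 18.8% of genes were past the fold. Over INPUT it was 4 of 7 on that scale, against 16.6%. *Piwil1* of this list is also a spermatocyte marker below. *Mov10l1*, the helicase of piRNA biogenesis, was at 2558 in TOTAL and at 22263 ± 2747 (SD, n = 3) in IP, a log2 ratio of 3.12. *Tdrd1*, a Tudor protein of germ granules, was at 1.40 over TOTAL, *Tdrd9*, a piRNA pathway helicase, at 1.56 and *Ddx39*, an RNA helicase, at 0.89.

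The spermatid genes known to need *Crem* or *Tbpl1* were close to absent, and transcripts of *Crem* and *Tbpl1* were present. Only RNA was measured, and the activity of the 2 factors was not tested. The 8 genes, 6 of which are also the spermatid markers above, had TOTAL means from 2.28 to 40.3. *Pgk2*, a germ cell glycolysis enzyme, was highest at 40.3 in TOTAL and 35.8 in IP. *Tnp2* and *Tnp1*, the transition proteins that replace histones, were at 39.3 and 30.1 in TOTAL and at 0.714 each in IP, which is 2 reads over the 3 IP libraries. *Odf1*, of the sperm tail, was at 23.5 in TOTAL and 1.63 in IP.

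Of 26 other germ cell regulators, 25 were found and 24 had a mean of at least 10 over TOTAL and IP. Of these, 9 were past the fold and higher over TOTAL and 2 lower, with a median of 0.39, where 20.6% of all genes were higher and 26.5% lower. Without *Neurog3* and *Fhl5*, which were under 10 in TOTAL and in IP respectively, the counts were 8 and 1 of 22. Over INPUT, 9 of 23 were higher and 1 lower, with a median of 0.79 against 0.15 for all genes, of which 20.7% were higher and 14.9% lower. Relative to the median gene, 7 were higher and 1 lower over INPUT, where 16.6% and 18.3% of genes were. Over BO, 11 of 23 were higher and 5 lower, where 44.4% and 11.4% of genes were, and the median of 0.70 was below the 0.82 of all genes. Relative to the median gene, the order over BO turned, with 5 higher and 8 lower, where 18.8% and 24.4% of genes were. Without *Neurog3*, whose BO mean was 5.02, 10 of 22 were higher over BO as deposited. *Zfx*, a zinc finger activator, had 1.33 over TOTAL and -1.29 over BO, where its mean was 15511. *Brdt*, the testis bromodomain protein, had 2.50 over TOTAL and 2.54 over BO. *Dmrt1*, of spermatogonia and Sertoli cells, had -1.69 over TOTAL, and *Etv5*, of spermatogonia, had -0.47. Singled out after their values were seen, *Kctd19* and *Zfp541*, whose products act together in pachytene spermatocytes, had 3.35 and 3.02 over TOTAL.

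Cell type markers in the same libraries ran in different directions. All 8 spermatocyte markers were past the fold and higher over TOTAL, INPUT and BO, with medians of 2.52, 2.52 and 3.18, and all 8 also were relative to the median gene. Among all genes 20.6%, 20.7% and 44.4% were higher as deposited, and 21.3%, 16.6% and 18.8% relative to the median gene. *Sycp1*, of the synaptonemal complex, was at 2.92 over TOTAL. The 5 spermatogonia markers had a median of -0.46 over TOTAL, with 1 past the fold and lower. The Leydig cell markers had a median of -2.56, all 5 past the fold and lower, and 4 of the 6 Sertoli cell markers were lower, with a median of -1.46, where 26.5% of all genes were lower. The 3 macrophage markers had a median of -1.87 over TOTAL, and the 2 peritubular markers differed, with *Acta2* at -2.59 and *Myh11* at 0.21. Over INPUT, 4 of 5 Leydig, 3 of 6 Sertoli, 3 of 3 macrophage and 1 of 5 spermatogonia markers were past the fold and lower, where 14.9% of genes were. Over BO, 2 of 5 Leydig markers and the macrophage markers *Csf1r* and *Emr1* were past the fold and higher in IP as deposited, where 44.4% of genes were, and none of either list was relative to the median gene. *Cd68*, the other macrophage marker, had a BO mean of 6.67 and reached the minimum only through IP, so it is not counted there. Of the Sertoli markers, 3 of 6 were lower over BO on both scales, where 11.4% of genes were as deposited and 24.4% relative to the median gene. The 5 spermatogonia markers had a median of -0.78 over INPUT. Over BO, 2 of them were higher and 2 lower as deposited, where 44.4% and 11.4% of genes were. Relative to the median gene, 1 was higher and 2 were lower, where 18.8% and 24.4% of genes were. The 9 factors, with a median of 1.95, were thus on the same side as the spermatocyte markers over TOTAL, and the part of cell type in their values was not tested.

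In their transcripts, the 9 genes were not set apart by length. The longest annotated transcripts ran from 1933 bases for *Taf7l* to 5149 for *Taf4b*, with a median of 2931 against 3434 for 13523 protein-coding genes. Their median share of A was 27.2% against 25.3%, and their median GC content 43.96% against 49.7%. *Mybl1* and *Taf7l* stood out with 32.7% and 31.5% A, at the 97.8 and 96.0 percentile. *Hsf2* and *Mybl1* had GC contents of 36.2% and 37.0%, at the 0.584 and 1.12 percentile. *Rfx2* and *Tcfl5*, by contrast, had 54.0% and 56.3% GC and only 21.4% and 22.8% A.

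The genes whose 3 log2 ratios were most like the medians of the group were taken from 11116 genes with a TOTAL mean of at least 100. *Ankrd42* was closest at a distance of 0.08 in log2, with ratios of 1.82 over BO, 1.95 over INPUT and 1.87 over TOTAL. *Ccnyl1*, a cyclin Y-like gene, followed at 0.12 and *Cdr2* at 0.14.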

How the data were processed

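Reads were not realigned. According to the submitters' processing notes and the methods of the study, the authors aligned the reads to the mm10 genome using STAR 2.6.0c and normalised counts with DESeq2 1.24.0, while repeat counts were reassigned with Telescope and normalised with EBSeq. The gene annotation and the counting tool are not given in the sources used here. The deposited signal of each gene is the mean of the normalised counts of a group, with 3 decimals, in 3 tables normalised separately. The repeat signal used here is a normalised count per subfamily and library. Columns of fold changes, standard errors, statistics and p-values were not used.

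The reads of the IP libraries were solved from the 3 IP means of each row as whole numbers, after the tables had been seen. Whole reads reproduced 19153 of 19155 genes above 0 in IP within 0.0012, and all 9 members. Tested on 200000 simulated rows, 100.0% were exact. Ratios are log2 of deposited means, without pseudocount or test, in Python 3.11.15 (pandas 2.3.3). Members and lists were chosen with earlier results of these data known. All members are named, relatives beside their member, of lists of partners, targets and regulators the 4 genes of highest TOTAL mean, and the 3 genes most like the group's median. Marker lists are given by counts and medians, although the rule covered them, and the genes named from them, *Taf10*, *Gtf2a1l*, *Pld6*, *Kctd19*, *Zfp541*, *Neurog3* and *Fhl5* were singled out after their values were seen. Lists name 12 groups of genes. *Ddx39* stands for Ddx39a and *Emr1* for Adgre1. Lengths are those of the longest GENCODE M21 transcript. Alternatives were 3 other scalings, pseudocounts of 1 and 10, other minimum means of 100 or above 0, and each IP library left out.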

Additional observations from a re-analysis of the deposited data

How the results depend on the processing

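Over BO, 4 of the 9 transcripts were past the fold and higher in IP when ratios were centred on the median gene, and 4 when scaled to the upper quartile, against 7 as deposited. For the relatives the number was 3 under both, against 8. The share of all genes moved with them, from 44.4% to 18.8% and 19.1%. Over INPUT, 8 of the 9 were past the fold and higher with summed means and 8 with the upper quartile, against 9 as deposited. The share of all genes there was 12.0% and 13.1%, against 20.7%. The median of the 9 from INPUT to BO was 0.16 without centring, an alternative added after the data were seen, against 0.71. Centring of the other gene lists, and counts without genes under the minimum mean in 1 group, were also added then. The counts they changed for partners, regulators and the genes that need *Mybl1* stand in the text. Centring subtracted 0.82 over BO, 0.15 over INPUT and -0.03 over TOTAL from the log2 ratios. Scaling to summed means subtracted -0.04, 0.37 and 0.17. Of 216 values of single members under these alternatives, 12 changed sides of the fold, all for *Crem*, *Hsf2*, *Taf4b* and *Tbpl1*: 4 with centring, 5 with the upper quartile, 2 with summed means and 1 with a library left out. Pseudocounts of 1 and 10 changed none. Libraries could be left out only from IP. No paired analysis was possible because the gene reads solved for IP libraries a, b and c carry no replicate number and genes of the other groups are given as means. Repeat counts carry replicate numbers, but no comparison was made with them. Depth limits *Rfx2* most, with at least 234 reads behind its BO mean.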
